A study of Homo sapiens with 6 samples.

Results

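Proteasome subunit genes were examined by RNA-seq in HGC27 cells that overexpressed the *FN1* 3′-UTR and in control cells. Members were the gene rows whose symbols begin with PSMA, PSMB, PSMC or PSMD followed by a number, without *PSMB8* and *PSMB9*. This rule used names and no measured value, and it found 36 of the 39739 gene rows. Of these, 16 encode the core particle (PSMA and PSMB genes) and 20 the regulatory particle (PSMC and PSMD genes). HGC27 is an established human gastric cancer cell line. The 3 HGC27-FN1 3′-UTR libraries came from cells that stably overexpressed the *FN1* 3′-UTR after lentiviral infection and puromycin selection, and the 3 HGC27-control libraries from cells labelled as control. What the control cells carried is not given in the sources used here, and neither is whether the resistant cells were 1 clone or a pool. The labels do not say that the replicates came from separate cultures, so p-values measure only the spread between these libraries.

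The proteasome is the large protease that degrades proteins tagged with ubiquitin. Its core particle is a barrel of stacked rings, in which the outer alpha rings form a gate and the inner beta rings carry the peptide-cutting sites. The regulatory particle caps the barrel, with a base whose ATPases unfold the substrate and push it through the gate, and a lid that removes the ubiquitin chain. The subunits are made in matched amounts, and the transcription factor NFE2L1 is known to raise their genes together when proteasome activity falls short.

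Depth, quality and identity of the libraries were checked first. The libraries held between 16357085 and 29202046 reads assigned to genes in HGC27-FN1 3′-UTR cells and between 22332816 and 37037532 in HGC27-control cells. Mitochondrial transcripts took between 5.37% and 6.72% of reads in the first group and between 6.20% and 6.96% in the second. *FN1* itself was measured at 0.777, 0.745 and 0.819 RPKM in HGC27-FN1 3′-UTR replicates 1 to 3 and at 0.543, 0.474 and 0.532 RPKM in HGC27-control replicates 1 to 3, over all merged exons, so reads from the 3′-UTR alone were not told apart. The groups did not overlap for *FN1* (log2 fold change 0.52, limma adjusted p = 0.0292, under 0.05 in 5 of 13 alternative fits). Of 14 tested epithelial markers, 10 were higher in the overexpressing cells by the same test and none was lower. Over all rows tested, 5.62% were called higher and 7.36% lower. Their list summed to between 26.9 and 38.0 RPKM against 4.53 to 4.85 RPKM, so that epithelial markers were low in the control libraries of this gastric line. Of 6 fibroblast markers tested, 3 were higher and none was lower. *PDGFRA*, not called, was lower in every overexpressing library than in each control library (log2 fold change -0.21). No endothelial marker reached 0.1 RPKM in 3 libraries, and *PECAM1* was listed at 0 in every library. The fibroblast and endothelial list summed to between 170 and 173 RPKM against 117 to 134 RPKM. Most of this came from *COL3A1* (means of 111 and 82.1 RPKM) and *COL1A1* (means of 44.5 and 30.5 RPKM). Of 3 immune markers tested, 1 was lower, and their list summed to between 1.13 and 1.48 RPKM against 1.50 to 1.85 RPKM, with *CD3D* listed at 0 in every library. These markers moved with the groups, and their part in the results on proteasome genes was not tested. In bulk RNA, fewer cells of a kind and less RNA per cell cannot be told apart.

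Few proteasome subunit genes differed between the groups beyond the spread of the libraries. Of the 36 genes, 35 reached 0.1 RPKM in 3 libraries or more and were tested. Between 199 and 18943 reads lay behind each of their values. *PSMA4*, *PSMD1*, *PSMD6* and *PSMD12* rose, by between 10.9% and 15.4%, and no member fell. The test was limma on log2(RPKM + 0.1), two-sided, with Benjamini-Hochberg adjustment over all 23299 gene rows tested, and a gene was called at an adjusted p under 0.05. The 4 genes were 11.4% of the members tested, where 5.62% of all rows were called higher and 7.36% lower. At an unadjusted p under 0.05, 11 members were higher and 1 was lower, against 12.0% and 17.6% of all rows. No member changed by more than 1 on the log2 scale at that unadjusted p, as 1.65% of all rows did upward and 0.815% downward. The fold change was above 0 for 31 of 35 members, against 43.7% of all rows. The groups did not overlap for 12 members with higher values, 34.3% of those tested against 14.3% of all rows, and for 1 member with lower values, where the share of all rows was 21.7%. The median standard error was 0.042 for the members and 0.104 over all rows tested, so small differences were easier to call in the members. When only rows with a mean RPKM of at least 1 were kept, 8.27% of rows were called higher and 12.7% lower. In that fit 6 members were higher and none was lower.

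The differences were small throughout. The median log2 fold change of the 35 members was 0.07, against -0.035 over all rows tested and -0.007 over the 7437 rows with a mean RPKM of at least 5. The 95% intervals of all members lay between -0.19 and 0.37 on the log2 scale, so that a rise above 1.29-fold or a fall below 0.877-fold was outside the interval of each of them. Fold changes on log2(RPKM + 0.1) understate those of low genes, but the lowest group mean of any tested member was 5.38 RPKM. The 4 calls rested on the fit. None passed without a trend in the prior variance or without HGC27-FN1 3′-UTR replicate 1 or 2 or HGC27-control replicate 2. The share of all rows called higher also fell, from 5.62% to 4.09% without the trend. It was 2.32%, 2.6% and 2.21% without each of those 3 libraries in turn. After median-ratio scaling 9 members passed, with none lower. That scaling also turned the calls over all rows from 1310 higher and 1715 lower to 1696 higher and 1330 lower.

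**Figure D1:**
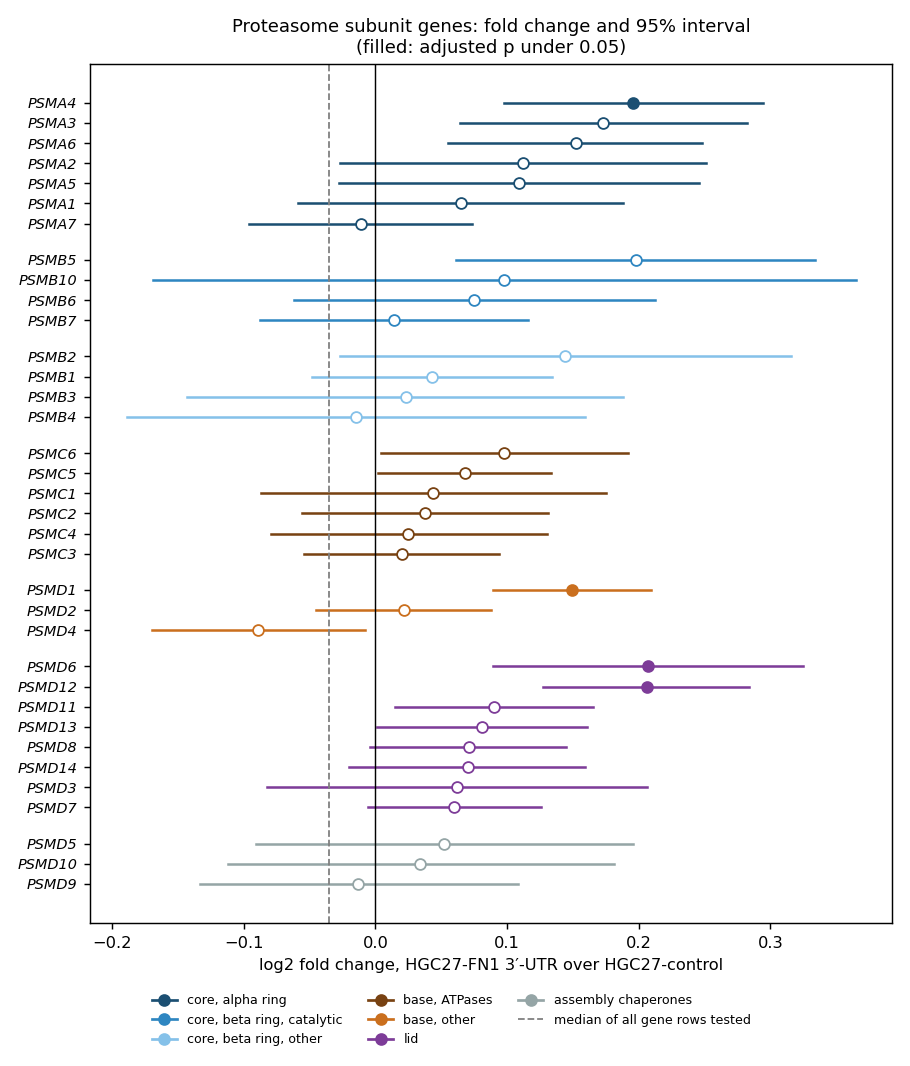
Log2 fold change (HGC27-FN1 3′-UTR over HGC27-control, x axis) of the 35 tested proteasome subunit genes, grouped by their place in the complex. Points are limma estimates, bars are 95% intervals and filled points have an adjusted p under 0.05. Most points lie to the right of 0, and the 4 filled points are *PSMA4*, *PSMD1*, *PSMD6* and *PSMD12*.

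The levels of subunit genes differed widely. In HGC27-control cells the core genes ranged from 5.62 RPKM for *PSMB10* to 138 RPKM for *PSMA7*, a 24.5-fold range with a median of 27.8 RPKM. The regulatory genes ranged from 5.43 RPKM for *PSMD9* to 189 RPKM for *PSMC3*, a 34.8-fold range with a median of 37.4 RPKM. *PSMB10* encodes an inducible counterpart of another subunit and *PSMD9* an assembly chaperone, so these ranges are not those of subunits needed in matched amounts. Apart from such genes, the lowest were *PSMA1* at 9.37 RPKM and *PSMD6* at 6.65 RPKM. RPKM divides by the length of all merged exons of a gene, between 1179 and 9123 nucleotides here, so a gene with many annotated isoforms appears lower than its main transcript would. *PSMA7* made up 24.2% of the summed core level, and *PSMC3* made up 19.8% of the summed regulatory level. These most abundant members differed little between the groups.

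The alpha ring is built from the PSMA genes. Of 7 tested, 1 rose and none fell, against 5.62% and 7.36% of all rows, and their median log2 fold change was 0.11. *PSMA4*, an alpha ring subunit encoded on chromosome 15 of GRCh38 (78540405 to 78552419, forward strand), had 31.8, 32.4 and 30.8 RPKM in HGC27-FN1 3′-UTR replicates 1 to 3 and 29.0, 26.6 and 27.3 RPKM in HGC27-control replicates 1 to 3. The groups did not overlap, although the highest control library lay close to the lowest overexpressing one. *PSMA4* differed by 0.20 on the log2 scale (standard error 0.040, limma adjusted p = 0.0282). Its adjusted p stayed under 0.05 in 7 of 14 alternative fits, with adjusted p from limma between 5.21e-04 and 0.0953.

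*PSMA3* and *PSMA6*, also alpha ring subunits, did not pass the test. *PSMA3* had 42.1, 40.05 and 37.6 RPKM in HGC27-FN1 3′-UTR cells and 34.8, 35.8 and 35.4 RPKM in HGC27-control cells (log2 fold change 0.17, limma adjusted p = 0.0552). *PSMA6* had 22.7, 21.1 and 21.6 RPKM against 19.1, 19.5 and 20.2 RPKM (log2 fold change 0.15, limma adjusted p = 0.0571). In both genes the lowest overexpressing library exceeded the highest control library. *PSMA7*, the most abundant core gene, had 142, 132 and 137 RPKM against 136, 137 and 140 RPKM. The groups overlapped fully, and the 95% interval of its log2 fold change ran from -0.10 to 0.07. *PSMA1*, *PSMA2* and *PSMA5* had log2 fold changes between 0.065 and 0.112, with overlapping groups.

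The beta ring holds the proteolytic sites. *PSMB5* encodes the chymotrypsin-like site, which is the main target of proteasome inhibitor drugs, *PSMB6* the caspase-like site and *PSMB7* the trypsin-like site. *PSMB5*, on chromosome 14 (23016543 to 23035230, reverse strand), had 66.2, 60.3 and 63.6 RPKM in HGC27-FN1 3′-UTR cells and 52.1, 54.6 and 59.1 RPKM in HGC27-control cells. The groups did not overlap, but the spread within each was wide, and the log2 fold change of 0.20 (standard error 0.057) did not pass, with an adjusted p of 0.0701 from limma. *PSMB6* had 39.1, 38.65 and 39.6 RPKM against 34.2, 37.6 and 39.9 RPKM. *PSMB7* had 78.6, 81.45 and 73.7 RPKM against 75.5, 77.2 and 78.55 RPKM. Both overlapped between the groups, with adjusted p of 0.438 and 0.866 from limma. The 3 constitutive catalytic genes thus had log2 fold changes between 0.01 and 0.20, none of which passed the test.

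*PSMB10* encodes the interferon-inducible counterpart of the trypsin-like subunit. It had 6.57, 5.70 and 5.71 RPKM in HGC27-FN1 3′-UTR cells and 5.12, 5.17 and 6.56 RPKM in HGC27-control cells. HGC27-FN1 3′-UTR replicate 1 and HGC27-control replicate 3 stood above the other 4 libraries, and its 95% interval, -0.17 to 0.37 on the log2 scale, was the widest of all members. *PSMB8* and *PSMB9*, the other inducible catalytic genes, which the rule left out, had log2 fold changes of -0.03 and -0.19 (adjusted p = 0.721 and 0.201 from limma). *PSMB11*, the thymus-specific catalytic gene, had 0 reads in all 6 libraries, which allows a level of up to between 0.0384 and 0.0869 RPKM at 3 reads per library, counting error only. *PSMB1*, *PSMB2*, *PSMB3* and *PSMB4*, the beta subunits without a catalytic site, overlapped between the groups, with log2 fold changes between -0.015 and 0.14.

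**Figure D2:**
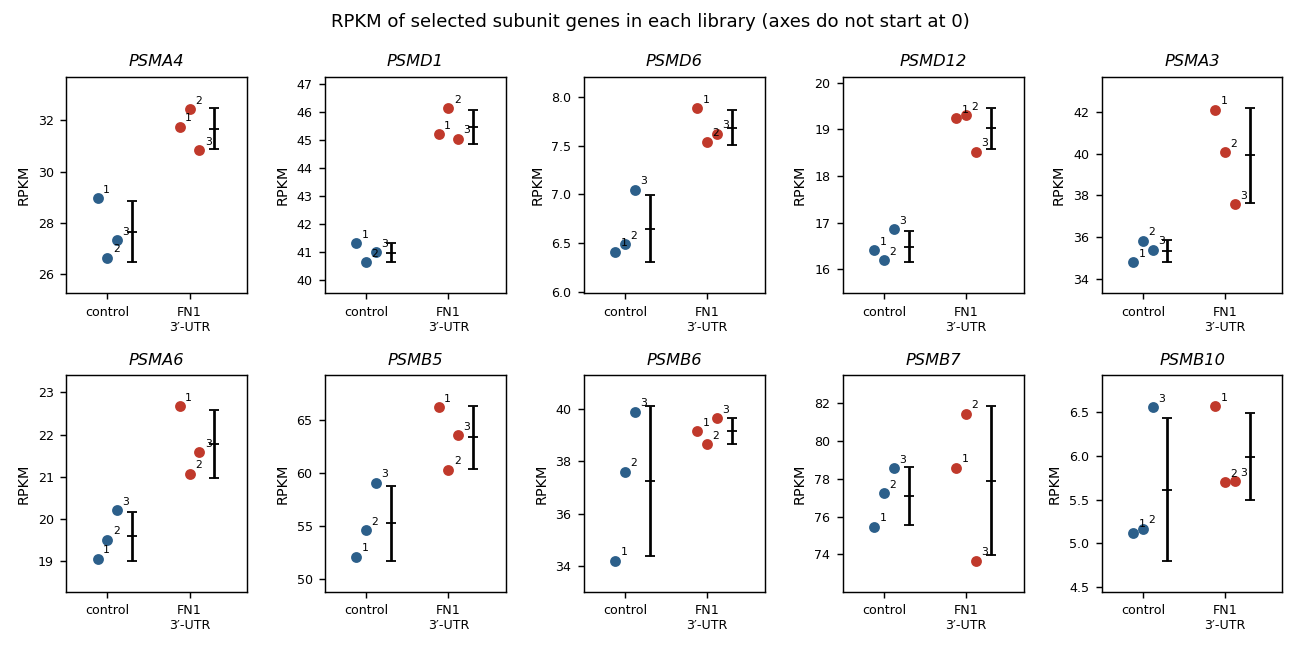
RPKM of 10 subunit genes in each library (y axes in RPKM, not starting at 0), with HGC27-control in blue and HGC27-FN1 3′-UTR in red, replicate numbers beside the points and mean ± SD (n = 3) as black bars. The groups are apart for *PSMA4*, *PSMD1*, *PSMD6*, *PSMD12*, *PSMA3*, *PSMA6* and *PSMB5* and overlap for *PSMB6*, *PSMB7* and *PSMB10*.

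In the regulatory particle, the base contains 6 ATPases encoded by the PSMC genes and large scaffold subunits. None of the 6 ATPase genes was called. All 6 had log2 fold changes from 0.02 to 0.10 (median 0.04), with *PSMC4* below 0 when HGC27-FN1 3′-UTR replicate 1 was left out. The groups did not overlap for *PSMC5* and *PSMC6*, with higher values, where the share of all rows was 14.3%. Neither gene was called. *PSMC3*, the most abundant member, had 195, 194 and 186 RPKM in HGC27-FN1 3′-UTR cells and 191, 186 and 190 RPKM in HGC27-control cells. These values overlapped, and the 95% interval of the difference ran from -0.05 to 0.09 on the log2 scale.

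Of the 3 members that encode non-ATPase subunits of the base, 1 rose and none fell, against 5.62% and 7.36% of all rows. *PSMD1*, a large scaffold subunit of the base, is encoded on chromosome 2 (231056864 to 231172827, forward strand). It had 45.2, 46.1 and 45.0 RPKM in HGC27-FN1 3′-UTR replicates 1 to 3 and 41.3, 40.6 and 41.0 RPKM in HGC27-control replicates 1 to 3. The distance between the groups was several times the spread within either, and *PSMD1* differed by 0.15 on the log2 scale (standard error 0.025, limma adjusted p = 0.0156, 9 of 14 alternative fits under 0.05, with adjusted p between 0.00204 and 0.0827). *PSMD2*, the other large scaffold, had a log2 fold change of 0.02 (limma adjusted p = 0.661). *PSMD4*, a ubiquitin receptor, had 88.8, 86.1 and 87.3 RPKM against 90.9, 91.3 and 96.7 RPKM. It was chosen after its values were seen, as the only member whose HGC27-FN1 3′-UTR libraries all lay below the control libraries, and its log2 fold change of -0.09 did not pass (adjusted p = 0.139 from limma).

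The lid holds the enzyme that removes ubiquitin chains. Of the 8 lid genes among the members, 2 rose and none fell, where 5.62% of all rows were called higher and 7.36% lower. These 8 all had log2 fold changes above 0, from 0.06 to 0.21 (median 0.08), against 43.7% of all rows. For 5 of them the groups did not overlap, with higher values, against 14.3% of all rows. The naming rule leaves out regulatory particle subunits with other symbols, such as *SHFM1*, a lid subunit, and *ADRM1*, a ubiquitin receptor. They had log2 fold changes of -0.01 and -0.14, and neither was called. *SHFM1* overlapped between the groups, and *ADRM1* was lower in every overexpressing library than in each control library. *PSMD12*, a lid scaffold subunit encoded on chromosome 17 (67337916 to 67366627, reverse strand), had 19.2, 19.3 and 18.5 RPKM in HGC27-FN1 3′-UTR cells and 16.4, 16.2 and 16.85 RPKM in HGC27-control cells. Its groups were far apart, and *PSMD12* differed by 0.21 on the log2 scale (standard error 0.033, limma adjusted p = 0.0133, 9 of 14 alternative fits under 0.05, with adjusted p between 7.45e-04 and 0.0629). *PSMD6*, another lid scaffold subunit, is encoded on chromosome 3 (64010549 to 64024010, reverse strand). It had 7.89, 7.54 and 7.62 RPKM against 6.41, 6.49 and 7.05 RPKM, with HGC27-control replicate 3 nearest to the other group. *PSMD6* differed by 0.21 on the log2 scale (standard error 0.049, limma adjusted p = 0.042, 6 of 14 alternative fits under 0.05, with adjusted p between 0.00305 and 0.137). An antisense gene, *PSMD6-AS2*, is named after it, and the strand setting of the read counting is not given in the sources used here. *PSMD14*, which encodes the deubiquitinase of the lid, had a log2 fold change of 0.07 (limma adjusted p = 0.271).

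*PSMD5*, *PSMD9* and *PSMD10* carry subunit names but encode chaperones that help assemble the base and leave the finished particle. None was called, and their log2 fold changes lay between -0.01 and 0.05. *PSMD9*, the least abundant regulatory gene, had 5.63, 5.26 and 5.24 RPKM in HGC27-FN1 3′-UTR cells and 5.20, 5.52 and 5.56 RPKM in HGC27-control cells. Those values overlapped.

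Core and regulatory particle genes were then set side by side. Of 15 tested core genes, 1 was higher (6.67%) and none was lower, with a median log2 fold change of 0.10. Of 20 tested regulatory genes, 3 were higher (15.0%) and none was lower, with a median of 0.06. Over all rows 5.62% were called higher and 7.36% lower, so the core count was near the share of all rows. Core genes summed to 613, 589 and 586 RPKM in HGC27-FN1 3′-UTR replicates 1 to 3 and to 546, 566 and 594 RPKM in HGC27-control replicates 1 to 3. Regulatory genes summed to 996, 983 and 964 RPKM against 949, 948 and 963 RPKM. The core sums overlapped between the groups, and the regulatory sums were separated by the small gap between the lowest overexpressing and the highest control library. The ratio of regulatory to core sum was 1.62, 1.67 and 1.65 in HGC27-FN1 3′-UTR cells and 1.74, 1.67 and 1.62 in HGC27-control cells. The control libraries alone covered the whole range of that ratio, so no shift in the ratio was detectable. The sums weigh abundant genes most. In HGC27-control cells *PSMA7* made up 24.2% of the core sum and *PSMC3* 19.8% of the regulatory sum. A shift among less abundant subunit genes could therefore be missed by this ratio. All 35 genes together took between 0.540% and 0.562% of reads in HGC27-FN1 3′-UTR cells and between 0.521% and 0.537% in HGC27-control cells.

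**Figure D3:**
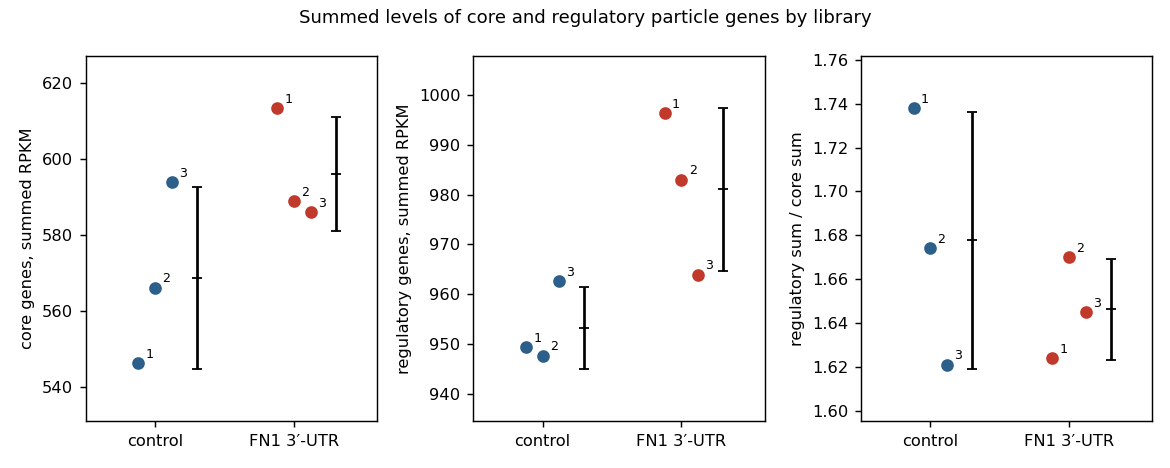
Summed RPKM of the 15 core genes, summed RPKM of the 20 regulatory genes and the ratio of the regulatory to the core sum in each library (y axes do not start at 0), with replicate numbers beside the points and mean ± SD (n = 3 each) as black bars. The core sums and the ratio overlap between the groups, while the regulatory sums of 964 to 996 RPKM lie just above those of 948 to 963 RPKM.

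Libraries of one group ranked alike over many core genes. HGC27-control replicate 1 had the lowest control value for 14 of 15 core genes, and HGC27-control replicate 3 had the highest for 13. In HGC27-FN1 3′-UTR cells, replicate 1 had the highest value for 12 of 15 core genes. The regulatory genes showed less of this, as HGC27-control replicate 1 was the lowest control library for 11 of 20 and replicate 3 the highest for 13. HGC27-control replicate 1 and HGC27-FN1 3′-UTR replicate 1 were the shallowest libraries of their groups, and the part of depth was not tested. Without HGC27-control replicate 1 the median log2 fold change of the core genes was 0.038 and that of the regulatory genes was 0.057, and without HGC27-control replicate 3 these were 0.156 and 0.063. The core median thus moved between 0.038 and 0.156 with single libraries left out, and the regulatory median between 0.051 and 0.074.

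**Figure D4:**
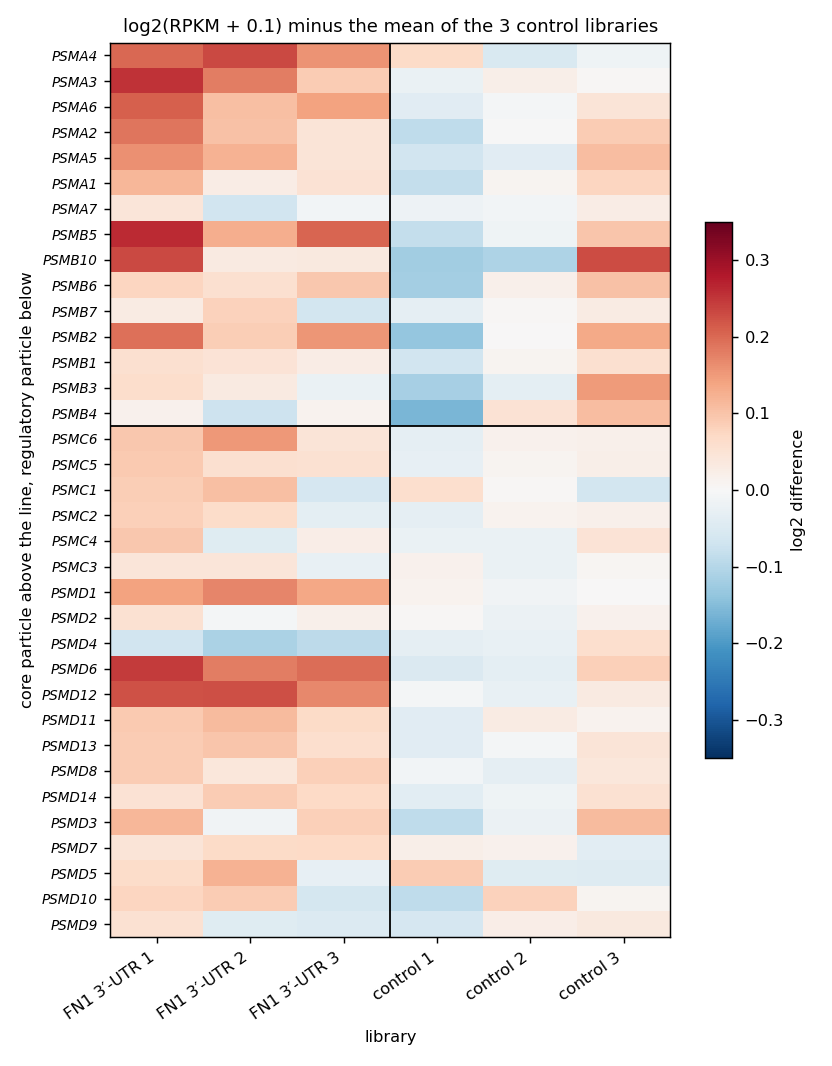
Difference of log2(RPKM + 0.1) from the mean of the 3 control libraries for the 35 tested genes (rows) in the 6 libraries (columns), in red where higher and blue where lower, with core genes above the horizontal line. HGC27-control replicate 1 is blue and replicate 3 is red for most core genes, and *PSMD4* is blue in all 3 HGC27-FN1 3′-UTR libraries.

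Promoters of the subunit genes were examined for the antioxidant response element, the kind of site that NFE2L1 and NFE2L2 bind. RefSeq windows from 250 bases before to 50 bases after the gene start were used (GRCh38.p14), and 31 of the 36 members had at least 1. The core of the element, TGACNNNGC on either strand, occurred in 9 of the 31 members (29.0%) and in 16.1% of all 27305 genes with a window. The same letters followed by A, a longer motif that contains the first, occurred in 7 members (22.6%) and in 3.94% of all genes. CCAAT, the box bound by NF-Y, occurred in 17 members (54.8%) and in 39.7% of all genes. Of the 4 genes that rose, *PSMA4*, *PSMD1* and *PSMD12* held the longer motif and *PSMD6* did not. Over all members with a window, the median log2 fold change was 0.07 both for the 7 tested genes with the longer motif and for the 23 without it. A match of letters is not a bound site. The stretches with the longer motif in these 7 genes are shown because 3 of them belong to called genes. In *PSMD1* and *PSMD3* the motif lies after the RefSeq start, in transcribed sequence. In *PSMA4* and *PSMC5* it lies before the RefSeq start that the window is built on, but inside the gene span of the deposited table, which begins further upstream. They read 5′ to 3′ on the strand that carries the motif, and capitals mark the motif:
*PSMA4*, chr15:78540650-78540679, forward strand: gtgggcacgaTGACTCTGCAccgcctcctc
*PSMD1*, chr2:231056896-231056916, forward strand: aggaggcgacTGACTGAGCAg
*PSMD12*, chr17:67366723-67366752, reverse strand: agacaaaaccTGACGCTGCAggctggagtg
*PSMB3*, chr17:38752627-38752656, forward strand: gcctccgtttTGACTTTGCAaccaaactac
*PSMC5*, chr17:63827653-63827682, reverse strand: agggcggcgcTGACACAGCAgatccggtcg
*PSMD3*, chr17:39980829-39980856, reverse strand: ccgcacgaTGACGGAGCAgctgcaaacc
*PSMD9*, chr12:121888630-121888659, reverse strand: gcgcctgtggTGACCCGGCAggagtagcgt

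Other genes of the pathway were compared in 7 lists with 64 genes, of which 62 were tested, 3 were higher and 4 were lower, near the 5.62% and 7.36% of all rows, so these counts do not set the pathway apart. Their median log2 fold change was -0.01. With median-ratio scaling 7 were higher and 1 was lower. Among the activators that can replace the regulatory particle, *PSME3*, which encodes the nuclear activator, had 41.1, 38.4 and 40.6 RPKM in HGC27-FN1 3′-UTR cells and 33.6, 34.75 and 36.7 RPKM in HGC27-control cells. It rose by 14.2% (log2 fold change 0.19, adjusted p = 0.0385 from limma). *PSME4*, a single-chain activator, had a log2 fold change of 0.13 that did not pass (adjusted p = 0.0631 from limma). *PSME1* and *PSME2*, the interferon-inducible pair, had log2 fold changes of -0.13 and 0.03 (adjusted p = 0.0831 and 0.638 from limma). *PSMF1*, an inhibitor of the core particle, had one of -0.03 (adjusted p = 0.726 from limma).

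Of 9 assembly factors, 1 rose and none fell, against 5.62% and 7.36% of all rows. *POMP*, the chaperone on which the beta ring matures, had 41.7, 42.3 and 38.7 RPKM in HGC27-FN1 3′-UTR cells and 34.5, 34.95 and 37.1 RPKM in HGC27-control cells. The groups did not overlap, with a rise of 15.0% (log2 fold change 0.20, adjusted p = 0.0399 from limma). *PSME3* passed in 6 and *POMP* in 7 of 14 alternative fits, so these calls were about as firm as those of the subunit genes.

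Of 14 tested regulators of the subunit genes, none rose and 1 fell, near the 5.62% and 7.36% of all rows. *NFE2L1* had 55.3, 53.1 and 53.95 RPKM in HGC27-FN1 3′-UTR cells and 59.25, 58.6 and 61.1 RPKM in HGC27-control cells. It fell by 9.26%, with a log2 fold change of -0.14 (limma adjusted p = 0.0303, 5 of 14 alternative fits under 0.05). With median-ratio scaling *NFE2L1* had a log2 fold change of -0.106 and did not pass (limma adjusted p = 0.0688). It also did not pass with any single library left out. NFE2L1 is regulated at the protein level by processing and degradation, which RNA-seq does not measure.

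Among 9 other genes whose products belong to or bind the proteasome, *SHFM1* and *ADRM1* included, none rose and 1 fell. Over all rows 5.62% were called higher and 7.36% lower. *ZFAND2A*, an arsenite-inducible gene whose product associates with the proteasome, had 3.91, 3.63 and 3.72 RPKM in HGC27-FN1 3′-UTR cells and 5.40, 4.865 and 5.34 RPKM in HGC27-control cells. *ZFAND2A* differed by -0.46 on the log2 scale (standard error 0.059, limma adjusted p = 0.00718), a fall of 27.2% that was larger in size than the difference of each subunit gene and passed in all 14 alternative fits. None of the 4 ubiquitin genes was called. Of 19 genes for ubiquitin activation and substrate delivery, 1 was higher and 2 were lower, near the 5.62% and 7.36% of all rows. *FAF2* had 27.2, 25.9 and 26.8 RPKM in HGC27-FN1 3′-UTR cells and 23.7, 24.6 and 24.3 RPKM in HGC27-control cells (limma adjusted p = 0.0372, 6 of 14 alternative fits under 0.05). *FAF1* had 9.958, 10.7 and 10.01 RPKM against 11.5, 11.6 and 11.3 RPKM (limma adjusted p = 0.0446, 5 of 14). *UBXN1* had 88.3, 87.7 and 85.35 RPKM against 98.2, 94.5 and 95.7 RPKM (limma adjusted p = 0.0257, 5 of 14). None of the 3 overlapped between the groups, but with median-ratio scaling *FAF1* and *UBXN1* did not pass (limma adjusted p = 0.0999 and 0.0983). All 3 encode cofactors of VCP, the ATPase that extracts ubiquitin-tagged proteins for the proteasome. Other genes of this list that were not called also encode VCP cofactors, so this trait does not set the 3 apart.

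**Figure D5:**
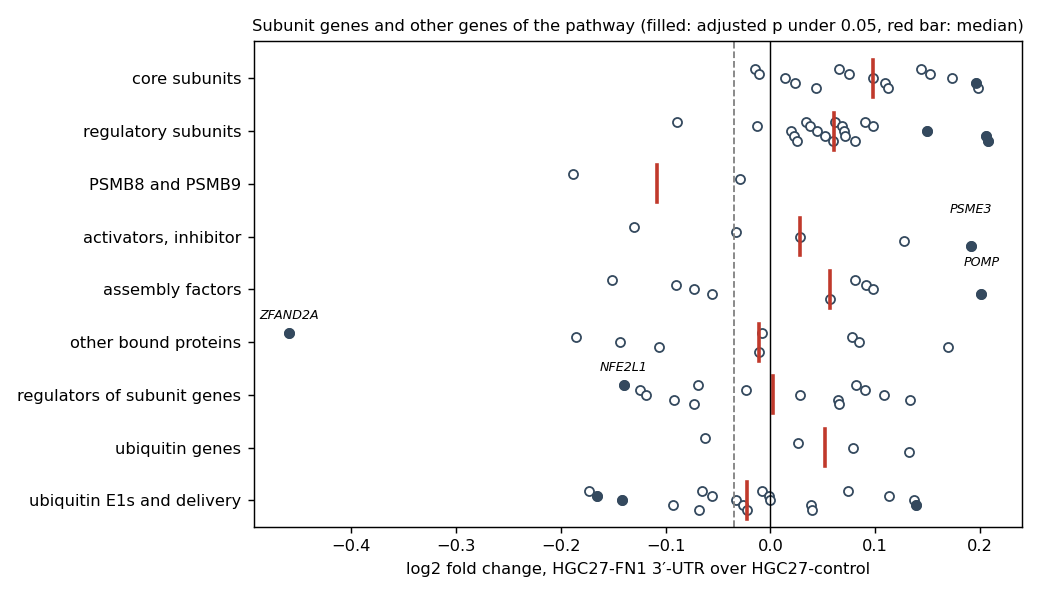
Log2 fold change (HGC27-FN1 3′-UTR over HGC27-control, x axis) of core and regulatory subunit genes and of the other genes of the pathway by list. Points are genes, filled where the adjusted p is under 0.05, red bars are medians and the dashed line is the median of all rows tested. *ZFAND2A*, at -0.46, lies outside the range of the other genes, while the medians of both subunit groups, 0.10 and 0.06, are close to 0.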

How the data were processed

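Stranded mRNA libraries were sequenced, and the authors deposited 1 table of RPKM per gene for each library. The submitters' processing notes name Trimmomatic 0.36, STAR 2.5.3a, featureCounts of Subread 1.5.1 and GRCh38. The annotation release is not given in the sources used here. RPKM times length in kilobases summed to 1000000 in each library. Reads were recovered as whole multiples of 1 read (100% of values above 0, within 0.05 reads) and gave the depth and 1 alternative fit. No libraries of a group were duplicates (chi-square of 2.50 to 5.66 per gene).

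Rows that reached 0.1 RPKM in 3 libraries or more were tested on log2(RPKM + 0.1) with limma 3.58.1 in R 4.3.3, with group as the only term and a trend in the prior variance. With 3 libraries a group, the smallest two-sided p of an exact permutation test is 0.1. Alternatives were the pseudocount, the filter, the scaling, the replicate block, the trend, the threshold, each replicate left out and voom on recovered reads. The members, lists and motifs were chosen with earlier results of these data known. Values in every library are given for called members, the 3 largest changes among the others, the catalytic genes, the most and least abundant members and those not tested, and called genes of the pathway lists. *PSMA8* was not analysed here. Tables and figures were made with Python 3.11.15, pandas 2.3.3, numpy 2.4.6 and matplotlib 3.10.9.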

Additional observations from a re-analysis of the deposited data

How the results depend on the processing

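All members, core members and regulatory members called higher numbered 4, 1 and 3. They numbered 9, 4 and 5 with median-ratio scaling, 7, 4 and 3 with voom on recovered reads, 6, 3 and 3 with a mean RPKM of at least 1, 7, 4 and 3 at an adjusted p under 0.1, 11, 4 and 7 at an unadjusted p under 0.05, and 0, 0 and 0 without the trend. Over all rows tested, 5.62% were called higher in the main fit. That share was 7.28% with median-ratio scaling, 8.76% with voom and 8.27% with a mean RPKM of at least 1. It was 12.0% at an unadjusted p under 0.05, 4.09% without the trend and 2.42% with the replicate block. No member was called lower except *PSMD4*, 1 regulatory member, at an unadjusted p under 0.05. With single replicates left out, the counts ran from 0 to 4, from 0 to 1 and from 0 to 3. In those fits between 2.21% and 4.08% of all rows were called higher. The replicate block also gave 0, 0 and 0 for these counts, but deviations of same-numbered libraries were nearly uncorrelated (correlations of 0.00244, 0.0211 and 0.0103), so the numbers were not taken to pair the libraries. HGC27-control replicate 1 correlated best with HGC27-FN1 3′-UTR replicate 3 (0.00838) and not with its own number. Median-ratio scaling moved the regulatory median log2 fold change from 0.061 to 0.096. Why these settings differ was not tested.

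The same alternatives were applied to the pathway lists after the data were examined. The 3 genes higher and 4 lower became 7 and 1 with median-ratio scaling, 6 and 8 with voom, 1 and 3 with no filter, 5 and 4 with a mean RPKM of at least 1, 0 and 1 both with the replicate block and without the trend, 7 and 7 at an adjusted p under 0.1 and 10 and 10 at an unadjusted p under 0.05, and ran from 0 to 2 and from 1 to 2 without single replicates. *FN1* passed in 5 of 13 alternative fits.

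Of 35 members, 7 changed direction in some fit, all near 0. With median-ratio scaling *PSMB4*, *PSMD9* and *PSMA7* had log2 fold changes of 0.019, 0.021 and 0.023, *PSMF1* 0.002 and *PSMB8* 0.005. Without single replicates these and others ranged from -0.094 to 0.039 for *PSMB4*, -0.045 to 0.005 for *PSMD9*, -0.038 to 0.016 for *PSMA7*, -0.019 to 0.054 for *PSMB7*, -0.035 to 0.097 for *PSMB3*, -0.009 to 0.059 for *PSMC4*, -0.01 to 0.083 for *PSMD10*, -0.076 to 0.009 for *PSMF1* and -0.008 to 0.118 for *PSMC1P1*. The precision of these 6 libraries limits what can be said of changes this small.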

Other observations

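Pseudogenes of the subunit genes were also listed outside the Y chromosome. Of 24 such rows, 12 reached the minimum RPKM and none was called, where 5.62% of all rows were called higher and 7.36% lower. *PSMC1P1*, a single-exon copy of *PSMC1* on chromosome 3, was the most abundant, with 22.8, 21.3 and 19.2 RPKM in HGC27-FN1 3′-UTR cells and 20.05, 20.55 and 20.4 RPKM in HGC27-control cells. Its reads came to 5.04% of those of *PSMC1*, and how reads were divided between near-identical copies is not given in the sources used here.

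Of 4 antisense genes named after a PSMA, PSMB or PSMD gene, only *PSMB8-AS1* was called, and it fell, against 7.36% of all rows. It had 2.19, 2.20 and 2.23 RPKM in HGC27-FN1 3′-UTR cells and 2.66, 2.89 and 3.20 RPKM in HGC27-control cells, a difference of -0.38 on the log2 scale (limma adjusted p = 0.0255, 8 of 14 alternative fits under 0.05). *PSMB8* on the opposite strand had 8.503, 8.961 and 8.245 RPKM against 8.527, 8.703 and 9.004 RPKM, with overlapping groups. The strand setting of the read counting is not given in the sources used here, so reads of the 2 genes may not be fully separated. The span of *PSMB8-AS1* also overlaps that of *PSMB9* on the same strand, so strand could not separate reads from any exons they share. *PSMA3-AS1*, *PSMD5-AS1* and *PSMD6-AS2* were not called.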
